A study of Rattus norvegicus with 48 samples.

Results

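The miR-99/100 family with miR-125b was taken as the 4 miRNAs rno-miR-99a, rno-miR-99b, rno-miR-100 and rno-miR-125b-5p, chosen by name, out of the 143 miRNAs measured by the NanoString nCounter assay in rat liver. The assay counts each miRNA with a probe of its own and without amplification. The 48 animals were male Sprague-Dawley rats in 16 groups of 3. They were pair-fed a liquid diet that held either ethanol (EtOH) or, in its place, carbohydrate (CHO), and the liver was left to regenerate after 70% partial hepatectomy (PHx). Untreated animals of both diets were collected at 0, 6, 24, and 72 h. Animals of both diets that were injected with saline, or with AM21 in saline, were collected at 0 and 24 h. AM21 is a locked nucleic acid oligonucleotide antisense to miR-21, given by intraperitoneal injection before surgery and again right after it. The samples at 0 h are the baseline, before regeneration. Whether injected animals at 0 h had the second injection is not said. Injected animals at 0 and 24 h may therefore differ in dosing as well as in time. Whole liver was assayed, so a miRNA carried by fewer cells and a miRNA at a lower amount per cell cannot be told apart.

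A miRNA guides a silencing complex to messenger RNAs that pair with its seed, the short stretch next to its 5′ end, and miRNAs with the same seed form a family. The miR-99/100 family is known for repressing Mtor, the kinase at the center of growth control, and miR-100 and miR-99a are often described as restraining proliferation. miR-125b, the vertebrate counterpart of the worm miRNA lin-4, is made beside a member of the miR-99/100 family and a let-7 miRNA in a cluster that is conserved among animals. In liver, miR-125b is known from stellate cells and other stromal cells. The cell type lists used by the study place miR-125b-5p, let-7c and let-7e among the miRNAs that rise when stellate cells are activated. miR-99a and miR-125a-5p are among those that fall. miR-99b and miR-125a-5p are listed as enriched in sinusoidal endothelial cells, and miR-99b also as changed in mouse Kupffer cells after PHx.

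The sequences show why the 4 members form 2 seed groups and how close the probes of the family lie. They were read from RefSeq (build GRCr8), 5′ to 3′, with the seed (bases 2 to 8) in capitals. The mature miRNAs and, for miR-99a, the Mir99a hairpin are given. In the hairpin the capitals mark the only stretch with the seed letters of miR-100. The cluster partners let-7a, let-7c, let-7e, and miR-125a-5p are shown because each lies beside a member.
rno-miR-100-5p: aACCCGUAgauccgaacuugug
rno-miR-99b-5p: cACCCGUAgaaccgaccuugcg
Mir99a hairpin: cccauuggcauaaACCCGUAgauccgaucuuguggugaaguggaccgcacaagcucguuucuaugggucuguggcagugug
rno-miR-125b-5p: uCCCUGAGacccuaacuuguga
rno-miR-125a-5p: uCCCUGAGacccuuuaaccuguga
rno-let-7a-5p: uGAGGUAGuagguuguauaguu
rno-let-7c-5p: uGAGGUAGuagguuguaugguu
rno-let-7e-5p: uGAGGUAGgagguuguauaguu

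miR-100 and miR-99b shared the seed ACCCGUA and differed at 4 of 22 bases, counted from 1 at the 5′ end of miR-100 (A1C, U11A, A16C, and U21C). Laid along the Mir99a hairpin at its best ungapped place, mature miR-100 differed at 1 of 22 bases (A16U). How well the probes keep miR-99a and miR-100 apart was not tested, and their levels may share signal. miR-125b-5p and miR-125a-5p shared the seed CCCUGAG and were identical over their first 13 bases. The 3 let-7 partners shared the seed GAGGUAG.

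The members came from 3 clusters with the same order of genes. On chromosome 11, Mir99a (hairpin chr11:29687392-29687472, plus strand) was followed by Mirlet7c1 and by Mir125b2, whose mature miR-125b-5p lies at chr11:29732588-29732609, in a span of 45.3 kb. On chromosome 8, Mir100 (mature miR-100, chr8:50798307-50798328, plus strand) was followed by Mirlet7a-2 and Mir125b1, all 3 inside the host gene Mir100hgl. On chromosome 1, Mir99b (mature miR-99b, chr1:67350070-67350091, plus strand), Mirlet7e and Mir125a lay within 696 bases. The assay measured mature miR-125b-5p, which Mir125b1 and Mir125b2 both encode, so its level was the sum of both clusters.

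The whole counts behind the deposited values were recovered. They ran from 287 to 1330 per animal for miR-99a, from 135 to 496 for miR-99b, from 47 to 226 for miR-100, and from 940 to 5050 for miR-125b-5p, out of 58168 to 267582 counts in all. The liver miRNAs miR-122, miR-192 and miR-194 were each present with at least 392 counts in every animal. Counts of 2 miRNAs are not set against each other, because each has its own probe. Levels are given as log2 CPM, as the authors deposited them. They are logarithms to base 2 of counts scaled to each animal's total, with that total adjusted by trimmed mean of M values. A level is therefore not fixed by the share of the total count alone. At 0 h, CHO-fed untreated replicate 1 had miR-99a at 0.83% of its total and at 12.64 log2 CPM. CHO-fed saline replicate 3 had 0.53% and 12.47 log2 CPM. A called miRNA had a Benjamini-Hochberg adjusted p under 0.05 by limma over all 143 miRNAs. The animals at 0 and 24 h were numbered in sets 1 to 3, each with 1 animal of all 12 groups, whereas all animals at 6 and 72 h were in set 4, so a change from 0 h to 6 or 72 h and a difference between sets cannot be told apart. The contrasts of 6 and 72 h against 0 h used the same untreated 0 h animals. Those of 24 h in controls used these animals and the saline animals at 0 h.

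**Figure D1:**
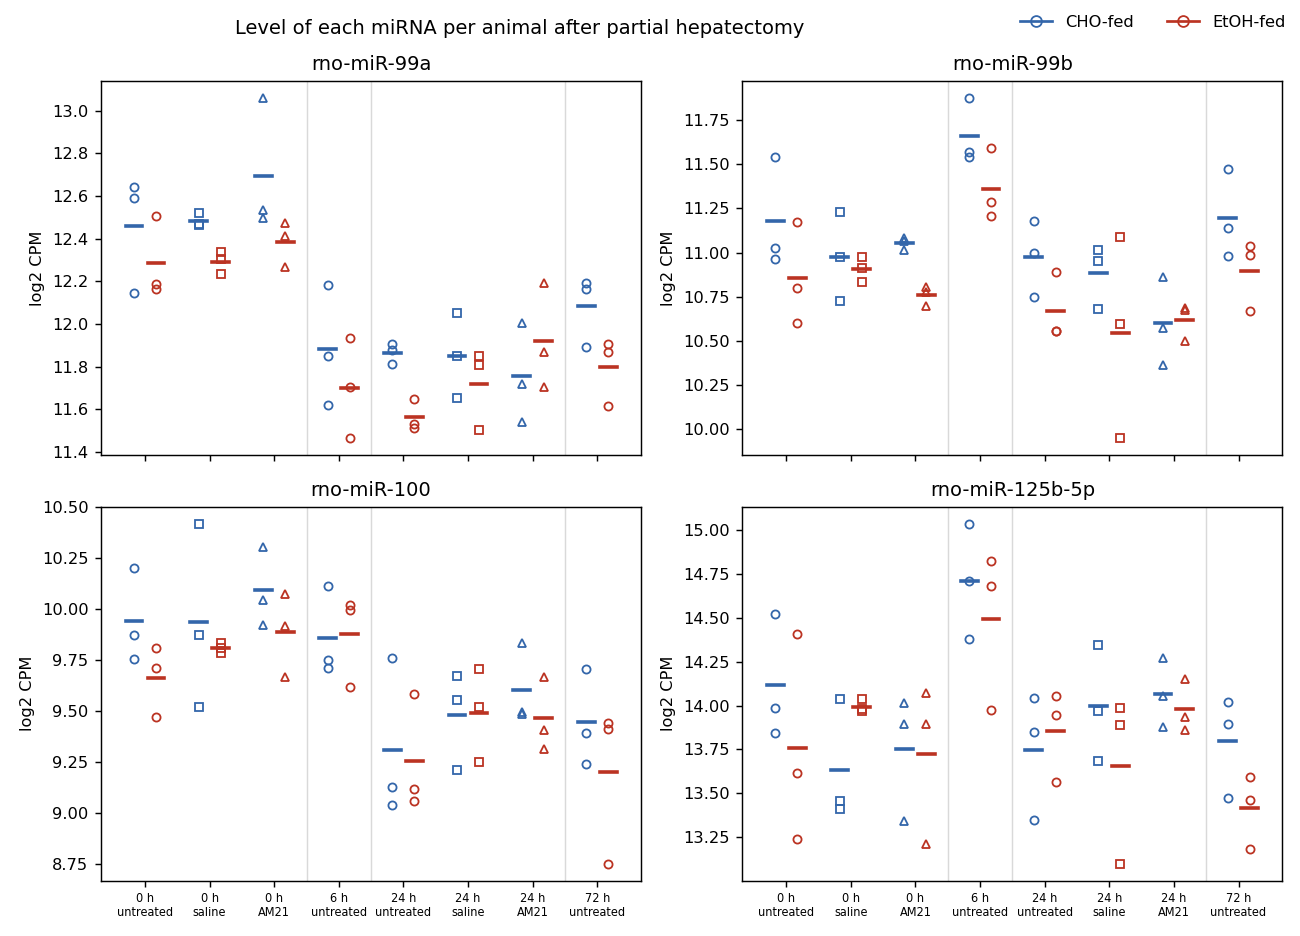
Level of the 4 miRNAs (log2 CPM, vertical axis) in each of the 48 animals by hours after PHx and treatment (horizontal axis), with CHO-fed animals in blue, EtOH-fed animals in red, circles for untreated, squares for saline and triangles for AM21, and bars at the mean of 3 animals. miR-99a stood highest in the 6 groups at 0 h, whereas miR-99b and miR-125b-5p stood highest in the 2 groups at 6 h.

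The level of miR-99a fell by 24 h after PHx in both diets and under all 3 treatments. Over untreated and saline animals of both diets it was 0.63 lower on the log2 scale at 24 h than at 0 h (SE 0.0861, 95% CI -0.81 to -0.45, n = 12 against 12), a 1.55-fold lower level. Limma gave an adjusted p of 5.16e-06, the smallest of all 143 miRNAs, where 34.3% of miRNAs were called. At 0 h the 18 animals ran from 12.14 to 13.06 log2 CPM with a median of 12.46, and at 24 h from 11.50 to 12.19 with a median of 11.81. Only the lowest animals at 0 h and the highest at 24 h overlapped when diets and treatments were mixed.

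Within each of the 6 arms of diet and treatment, all 3 animals at 24 h were below all 3 at 0 h. CHO-fed untreated animals had miR-99a levels of 12.14, 12.59, and 12.64 log2 CPM at 0 h and 11.81, 11.88, and 11.91 at 24 h. EtOH-fed untreated animals had 12.17, 12.19, and 12.51 log2 CPM at 0 h and 11.51, 11.53, and 11.65 at 24 h. In the AM21 arm of CHO-fed animals miR-99a was at 12.49, 12.53, and 13.06 at 0 h and at 11.54, 11.72, and 12.01 at 24 h, which was the widest gap among the arms (-0.94 on the log2 scale). Of all 143 miRNAs, 2 were lower at 24 h without overlap in all 6 arms (1.4%), and they were miR-99a and miR-27b. Of the other members, miR-99b and miR-100 each did so in 2 arms and miR-125b-5p in none. The share of all miRNAs in a single arm was not counted. In the other time contrasts of 3 against 3 animals, 20.3% (CHO, 6 against 0 h) to 47.6% (EtOH, 72 against 6 h) had no overlap. The 2 arms are therefore not read as a result about these members.

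miR-99a was lower at 24 h in each numbered set. The mean difference over the 6 arms was -0.53 in set 1, -0.60 in set 2, and -0.83 in set 3 on the log2 scale, and it was below 0 in 6 of 6 arms in every set. By diet, miR-99a fell by 0.61 in CHO-fed controls (SE 0.122, limma adjusted p = 0.000853, 6 animals against 6). The fall in EtOH-fed controls was 0.65, likewise 6 against 6 (SE 0.122, limma adjusted p = 0.000672). In AM21-treated animals miR-99a fell by 0.70 (SE 0.122, limma adjusted p = 0.000379). These calls stood with every animal left out in turn. With the untreated animals alone, 3 against 3, the CHO difference was -0.59 with a limma adjusted p of 0.0616.

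**Figure D2:**
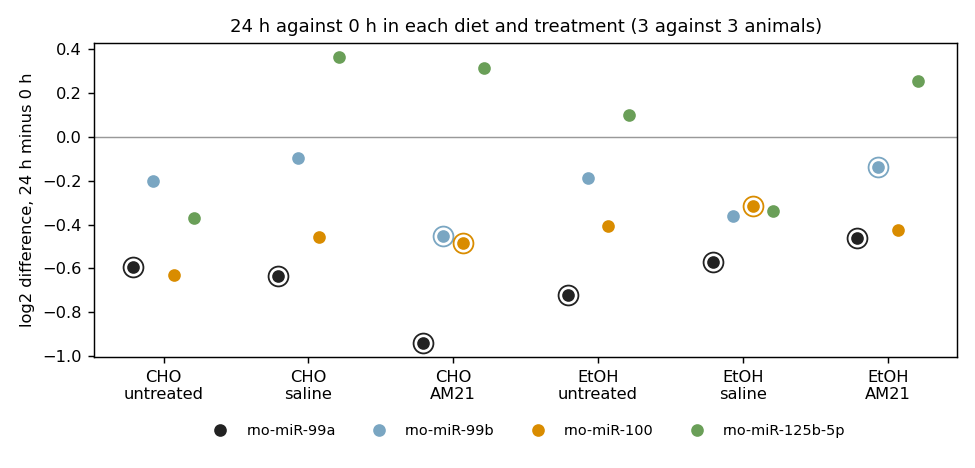
Difference of the 24 h mean from the 0 h mean (log2 CPM, vertical axis) of the 4 miRNAs in each diet and treatment, 3 animals against 3, with a ring where all 3 animals at 24 h lay on one side of all 3 at 0 h. miR-99a was ringed and below 0 in 6 of 6 arms, between -0.46 and -0.94, whereas miR-125b-5p was below 0 in 2 arms.

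miR-100, the member whose sequence is closest to miR-99a, was also lower at 24 h. Over controls of both diets it fell by 0.45 on the log2 scale (SE 0.107, 95% CI -0.67 to -0.24, limma adjusted p = 0.00208, n = 12 against 12). In CHO-fed controls, where 25.2% of miRNAs were called, miR-100 fell by 0.54 (limma adjusted p = 0.0120), a call that was lost in a fit of only the groups compared (limma adjusted p = 0.0595) and with the untreated animals alone (-0.63, limma adjusted p = 0.0776). In EtOH-fed controls, where 11.2% were called, the difference was -0.36 (SE 0.151, limma adjusted p = 0.112). CHO-fed untreated animals had miR-100 levels of 9.75, 9.87, and 10.20 log2 CPM at 0 h and 9.04, 9.13, and 9.76 at 24 h, so 1 animal at 24 h reached the lowest at 0 h. The mean of miR-100 was lower at 24 h in 6 of 6 arms, and the set means were -0.49, -0.45, and -0.42. In AM21-treated animals, with 14% of miRNAs called, miR-100 fell by 0.45 (limma adjusted p = 0.0442). That AM21 call was lost without any one of 8 animals, those numbered 1 of both diets, 2 of the EtOH diet, and 3 of the CHO diet at both times (limma adjusted p = 0.0615 to 0.120).

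miR-99b and miR-125b-5p did not pass the test at 24 h in any of these comparisons. Over controls of both diets the difference was -0.21 for miR-99b (SE 0.106, limma adjusted p = 0.113) and -0.06 for miR-125b-5p (95% CI -0.35 to 0.23, adjusted p = 0.757). Without EtOH-fed 24 h saline replicate 3, miR-99b was called (-0.28, limma adjusted p = 0.0256). At 24 h, then, 2 of the 4 members were called in CHO-fed controls and in AM21 animals, and 1, miR-99a, in EtOH-fed controls.

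At 6 h the members moved in different directions. With the diets averaged, 3 of 4 members were called against 24.5% of all miRNAs. miR-99a fell by 0.58 (SE 0.126, limma adjusted p = 0.00284, 6 animals against 6), whereas miR-99b was 0.49 higher (SE 0.142, limma adjusted p = 0.0133) and miR-125b-5p was 0.67 higher (SE 0.20, limma adjusted p = 0.0166). miR-100 differed by 0.07 (95% CI -0.26 to 0.40, limma adjusted p = 0.733). Within 1 diet, 0 of 4 members were called in CHO-fed animals (2.1% of all miRNAs called). At an unadjusted limma p under 0.05, 3 of 4 members passed there, beside 39 of all 143 miRNAs. In EtOH-fed animals 1 of 4 was called, miR-99a at -0.58 (limma adjusted p = 0.0369), where 11.2% of all miRNAs were called. That EtOH call was lost without EtOH-fed 0 h replicate 1 or 3 or without 6 h replicate 4_4 or 4_6 (limma adjusted p = 0.0811 to 0.268).

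The 2 groups at 6 h had the highest mean levels of miR-125b-5p among the 16 groups. CHO-fed untreated animals had 13.84, 13.99, and 14.52 log2 CPM at 0 h and 14.38, 14.71, and 15.04 at 6 h. EtOH-fed untreated animals had 13.24, 13.62, and 14.41 at 0 h and 13.98, 14.69, and 14.83 at 6 h. Both diets overlapped between 0 and 6 h by 1 animal at 0 h that lay above the lowest at 6 h. The call for the averaged diets was lost without CHO-fed 0 h replicate 1, EtOH-fed 0 h replicate 3 or EtOH-fed 6 h replicate 4_4 (limma adjusted p = 0.0532 to 0.0680). For miR-99b, CHO-fed animals ran at 10.97, 11.02, and 11.54 log2 CPM at 0 h and 11.54, 11.57, and 11.87 at 6 h, and EtOH-fed animals at 10.60, 10.80, and 11.17 and at 11.21, 11.28, and 11.59. In EtOH-fed animals the 3 values of miR-99b at 6 h were above the 3 at 0 h, and in CHO-fed animals the groups met at 11.54. Under the EtOH diet 28% of all miRNAs had no overlap between 0 and 6 h, in either direction. In a fit of only the 4 groups compared, miR-99b (limma adjusted p = 0.0510) and miR-125b-5p (limma adjusted p = 0.0595) missed the threshold.

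**Figure D3:**
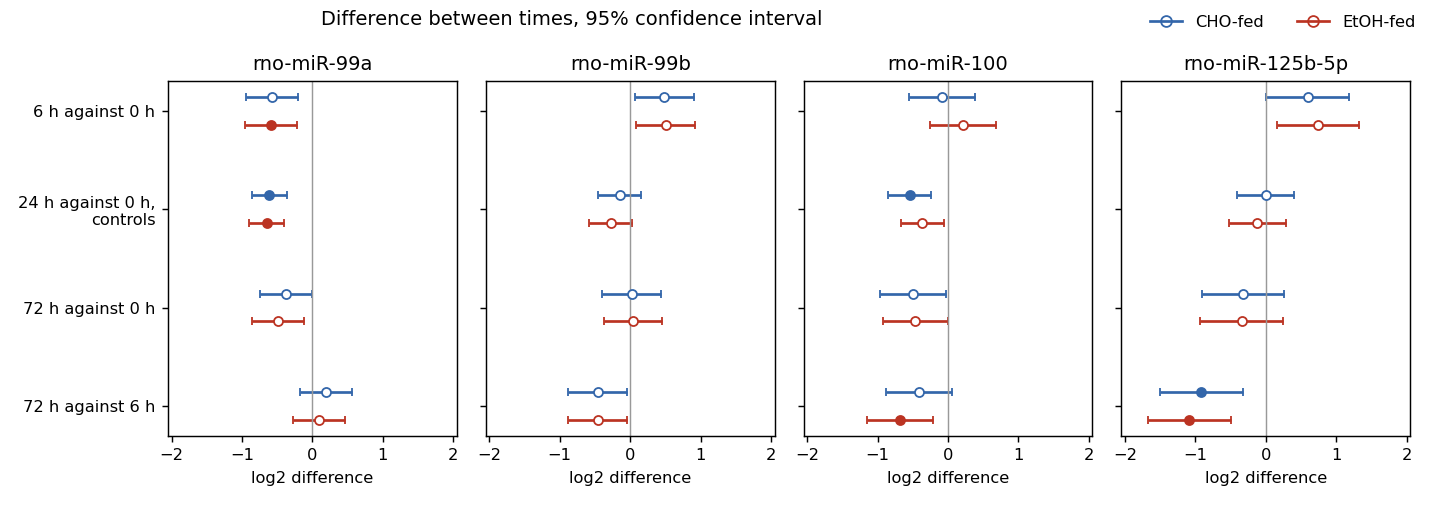
Differences between times (log2 CPM, horizontal axis, with 95% confidence intervals) of the 4 miRNAs in CHO-fed (blue) and EtOH-fed (red) animals, filled where limma called the difference. miR-99a was below 0 at 6, 24, and 72 h in both diets, whereas miR-99b and miR-125b-5p were above 0 at 6 h. The differences of miR-99b, miR-100 and miR-125b-5p from 6 to 72 h were below 0 in both diets.

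From 6 to 72 h, a comparison inside set 4, miR-99b, miR-100 and miR-125b-5p fell while miR-99a did not pass the test. With the diets averaged, 3 of 4 members were called against 46.9% of all miRNAs. miR-125b-5p fell by 1.00 on the log2 scale (SE 0.20, 95% CI -1.41 to -0.58, limma adjusted p = 0.000329), a 2.00-fold lower level. miR-100 fell by 0.54 (SE 0.159, limma adjusted p = 0.00652) and miR-99b by 0.46 (SE 0.142, limma adjusted p = 0.00879), and miR-99a differed by 0.15 (SE 0.126, limma adjusted p = 0.382).

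Within the diets, miR-125b-5p was the member called in both. Under the CHO diet it fell by 0.91 from 6 to 72 h (limma adjusted p = 0.0190, 30.8% of miRNAs called). Under the EtOH diet it fell by 1.08 (limma adjusted p = 0.00518, 37.1% called). At 72 h miR-125b-5p was at 13.47, 13.90, and 14.02 log2 CPM in CHO-fed and 13.18, 13.46, and 13.59 in EtOH-fed animals, all below the 6 h animals of the same diet. Of all miRNAs, 44.1% under the CHO diet and 47.6% under the EtOH diet had no overlap between 6 and 72 h, in either direction. The CHO call was lost without 6 h replicate 4_1 or 4_3 or 72 h replicate 4_9 (adjusted p = 0.0572 to 0.0944). miR-100 was called under the EtOH diet (-0.68, limma adjusted p = 0.0200) and not under the CHO diet (-0.41, adjusted p = 0.180), and the EtOH call was lost without 6 h replicate 4_4 or 4_5 or 72 h replicate 4_12 (adjusted p = 0.0692 to 0.151). Total counts also differed between these times, with a range of 87009 to 196972 in the 6 h animals and of 163533 to 267582 in the 72 h animals. When the log10 total count entered the fit, the averaged difference of miR-99b was -0.23 (limma adjusted p = 0.332), miR-100 and miR-125b-5p kept their calls, and miR-125b-5p in CHO-fed animals did not (-0.89, adjusted p = 0.0790).

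Against 0 h, 2 members stood lower at 72 h. With the diets averaged, miR-99a fell by 0.43 (SE 0.126, limma adjusted p = 0.0107) and miR-100 by 0.48 (SE 0.159, limma adjusted p = 0.0234), where 35.7% of all miRNAs were called. miR-99b differed by 0.03 (95% CI -0.26 to 0.32), and miR-125b-5p by -0.33 (95% CI -0.75 to 0.08, limma adjusted p = 0.189). EtOH-fed animals had miR-99a levels of 11.61, 11.87, and 11.91 log2 CPM at 72 h, below the 3 at 0 h, and CHO-fed animals 11.89, 12.16, and 12.19, of which 2 lay above the lowest animal at 0 h. Under the EtOH diet 38.5% of all miRNAs had no overlap between 0 and 72 h, in either direction. Within a diet, 0 of 4 members were called at 72 h in CHO-fed (18.2% of all miRNAs) and in EtOH-fed animals (18.2%). At an unadjusted limma p under 0.05, 2 and 1 members passed, beside 55 and 48 of all 143 miRNAs. The averaged call of miR-100 was lost without CHO-fed 0 h replicate 1, EtOH-fed 0 h replicate 3, CHO-fed 72 h replicate 4_7 or EtOH-fed 72 h replicate 4_12 (limma adjusted p = 0.0508 to 0.0734).

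Over all 3 times together, limma's F test called 2 of 4 members in CHO-fed animals, miR-99a (adjusted p = 0.0387) and miR-125b-5p (adjusted p = 0.0374), where 32.9% of all miRNAs were called. miR-99b and miR-100 had F test adjusted p-values of 0.0504 and 0.0641 by limma. In EtOH-fed animals all 4 members were called, with limma adjusted p-values from 0.0130 for miR-99a to 0.0449 for miR-100, where 39.9% were called. These counts moved with single animals. In CHO-fed animals the count was 0 without 6 h replicate 4_1 or 72 h replicate 4_7 or 4_9, 1 without 0 h replicate 1 or 3, 24 h replicate 1 or 2 or 6 h replicate 4_2 or 4_3, and 3 without 0 h replicate 2 or 72 h replicate 4_8. In EtOH-fed animals it was 1 without 0 h replicate 3, 6 h replicate 4_4 or 4_5 or 72 h replicate 4_12, and 2 without 0 h replicate 1 or 24 h replicate 1 or 3.

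The split within the family was also seen as the ratio of 2 members in the same animal, a measure that no scaling of the animal can change. The log2 ratio of miR-99a to miR-100 was 2.57 ± 0.209 (SD, n = 6) at 0 h in untreated animals, with values from 2.27 to 2.84. At 6 h it was 1.92 ± 0.153 (SD, n = 6), from 1.68 to 2.10, so all 6 animals were below all 6 at 0 h, although the lowest saline animal at 0 h lay within the 6 h range. At 72 h it was 2.61 ± 0.228 (SD, n = 6), from 2.46 to 2.95, so all 6 were above all 6 at 6 h. The ratio fell by 0.65 from 0 to 6 h and rose by 0.69 from 6 to 72 h, each with p = 0.005 in an exact two-sided permutation test within diets, the smallest p this design allows, and 0.024 adjusted over 24 tests of 6 ratios at 4 time pairs. At 24 h the ratio of miR-99a to miR-100 was 2.37 ± 0.307 (SD, n = 12) against 2.54 ± 0.251 (SD, n = 12) at 0 h in controls (change -0.18, exact permutation p = 0.155).

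Of the 24 tests, 8 passed at an adjusted p under 0.05, and all 8 were ratios that held miR-99a. The log2 ratio of miR-99a to miR-125b-5p fell by 1.25 from 0 to 6 h and rose by 1.14 from 6 to 72 h without overlap (exact permutation p = 0.005 each, adjusted p = 0.024). The ratio of miR-99a to miR-99b fell by 1.07 at 6 h (exact permutation p = 0.01, adjusted p = 0.0343) and rose by 0.61 from 6 to 72 h (exact permutation p = 0.005, adjusted p = 0.024). At 24 h the ratio to miR-99b changed by -0.42 (permutation p = 0.0165, adjusted p = 0.0496) and that to miR-125b-5p by -0.57 (permutation p = 0.00818, adjusted p = 0.0327). With each animal left out in turn, both changes of the ratio to miR-100 and the rise of the ratio to miR-125b-5p kept their calls. The ratios to miR-99b and miR-125b-5p at 6 h and that to miR-99b from 6 to 72 h lost theirs without EtOH-fed 6 h replicate 4_5 or 4_6, and the 6 h ratio to miR-99b also without CHO-fed 0 h replicate 1 or 3 (adjusted p = 0.0533 to 0.06 by exact permutation). At 24 h, 18 of 24 omissions ended the call for miR-99b and 7 of 24 that for miR-125b-5p, and with the untreated animals alone neither passed (adjusted exact permutation p = 0.13 and 0.203).

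**Figure D4:**
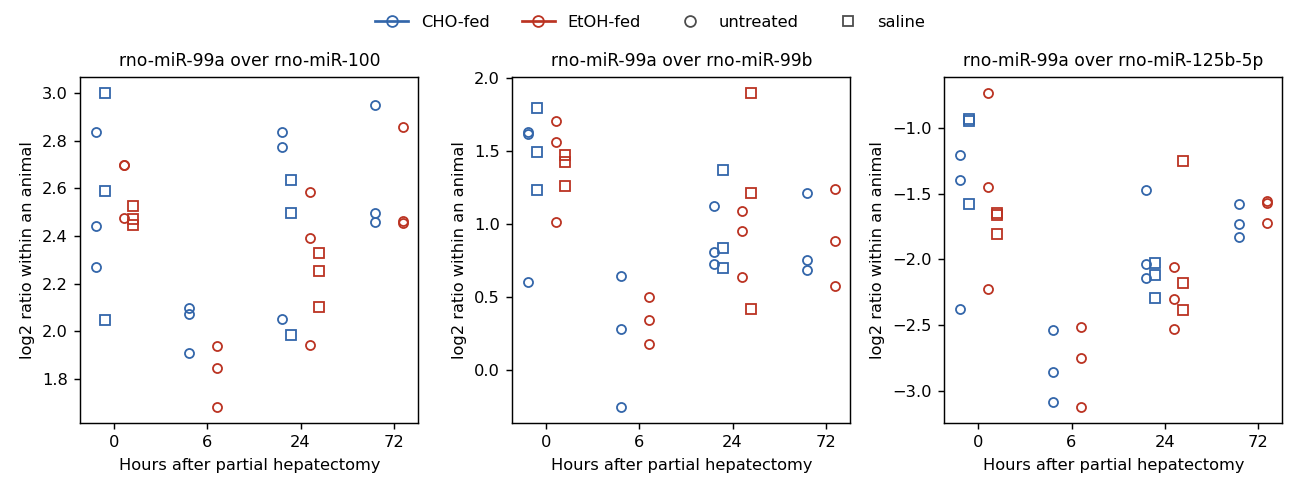
Log2 ratio of miR-99a to miR-100, miR-99b and miR-125b-5p within each control animal (vertical axis) by hours after PHx (horizontal axis), with CHO-fed animals in blue, EtOH-fed animals in red, circles for untreated and squares for saline. The 6 animals at 6 h lay between 1.68 and 2.10 for miR-99a over miR-100, below the 6 animals at 72 h, which lay between 2.46 and 2.95.

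The cluster partners gave a second view of each locus. miR-125a-5p, the neighbor of miR-99b with the seed of miR-125b, fell from 6 to 72 h by 0.76 under the CHO diet (limma adjusted p = 0.0126) and by 0.82 under the EtOH diet (limma adjusted p = 0.00581). In CHO-fed animals miR-125a-5p was at 12.40, 12.70, and 12.83 log2 CPM at 6 h and 11.62, 11.81, and 12.20 at 72 h, without overlap. Of all miRNAs, 44.1% had no overlap there, in either direction. With the diets averaged miR-125a-5p also fell by 0.43 at 24 h (limma adjusted p = 0.0184) and by 0.42 at 72 h (limma adjusted p = 0.0364) against 0 h. let-7e, the miRNA between them, fell from 6 to 72 h by 0.50 with the diets averaged (SE 0.10, limma adjusted p = 0.000344). let-7c, which lies beside miR-99a, passed the test in 0 of these 4 averaged comparisons, at -0.11 for 24 h against 0 h (limma adjusted p = 0.357). let-7a, beside miR-100, was 0.44 higher at 24 h in CHO-fed controls (limma adjusted p = 0.0156) and at -0.07 in EtOH-fed controls (limma adjusted p = 0.717), and the difference between the diets was -0.51 (limma adjusted p = 0.416). At 0 h let-7a was 0.40 higher under the EtOH diet than under the CHO diet (limma adjusted p = 0.00973). With AM21 at 0 h it was 0.40 higher than in controls (limma adjusted p = 0.0447). Both averages took in the same low groups, untreated and saline CHO-fed animals at 0 h, with let-7a means of 13.06 and 13.04 log2 CPM. The CHO-fed AM21 mean at 0 h was 13.68. In EtOH-fed untreated, saline and AM21 animals at 0 h the means were 13.62, 13.59, and 13.78. let-7a and let-7c are also made elsewhere in the genome, and their probes count every locus.

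Across the 16 group means, the miRNAs with the closest pattern differed between the members. The values below are Pearson's r over group means, a description of points that share libraries and scaling, with r within groups over 48 animals beside it. For miR-99a they were miR-27b (0.90, within groups 0.49), miR-10a-5p (0.81 and 0.48) and miR-23a (0.81 and 0.21). For miR-99b they were its neighbor miR-125a-5p (0.80 and 0.72), miR-532-3p (0.73 and 0.31) and miR-208b-3p (0.71 and 0.04). For miR-100 they were miR-139-5p (0.89 and -0.06), miR-181a (0.87 and 0.20) and miR-150 (0.87 and 0.29). For miR-125b-5p they were miR-3596c (0.83 and -0.15), whose gene overlaps Mirlet7e, miR-145 (0.81 and 0.62), known from smooth muscle and stellate cells, and miR-741-3p (0.81 and 0.00). Between members, the group means of miR-99a correlated at 0.72 with miR-100, at 0.17 with miR-99b and at -0.22 with miR-125b-5p.

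Within groups, the members varied to different degrees. The SD within groups was 0.20 for miR-99a, 0.24 for miR-99b, 0.26 for miR-100, and 0.35 for miR-125b-5p on the log2 scale, which ranked 15, 41, 53, and 108 from the lowest of 143, beside a median of 0.29. The range of the 16 group means was 1.13 for miR-99a, 1.12 for miR-99b, 0.89 for miR-100, and 1.30 for miR-125b-5p, beside a median of 1.00. Group means in order were mostly closer than this spread: of 15 neighboring pairs, the gap passed the SD within groups in 2 for miR-99a, 1 for miR-99b, 0 for miR-100, and 1 for miR-125b-5p. The highest group of miR-99a was AM21-treated CHO-fed animals at 0 h (12.70) and the lowest untreated EtOH-fed animals at 24 h (11.56). miR-99b and miR-100 served, with miR-23a, as the endogenous normalizers of the study's quantitative PCR in a human stellate cell line, a setting not measured here.

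Of the 6 pairs of members, 1 passed a permutation test of correlation within groups over the 48 animals. The shuffles ran over all animals after the group means were removed. They took no account of that removal, so the permutation p-values may be too small. miR-99b and miR-125b-5p had a Pearson's r of 0.44 (permutation p = 0.00164, adjusted p = 0.00984) and a Spearman's rho of 0.35 (permutation p = 0.0141, adjusted p = 0.0847). Without the 2 animals farthest from the median r was 0.36 (adjusted permutation p = 0.0907), which ended the call while r stayed positive. By set it was 0.52, 0.75, 0.45, and -0.01, the last in set 4. The other pairs had r from -0.26 to 0.21 with permutation p-values adjusted to 0.238 or more, and some differed in sign between sets. miR-99a with miR-125b-5p had r of -0.03, -0.54, -0.45, and 0.75 in sets 1 to 4, beside -0.01 over all animals. miR-100 with miR-125b-5p had r of 0.34, 0.19, -0.30, and 0.64, and miR-99a with miR-100 had 0.04, 0.04, 0.12, and 0.70. miR-99a with miR-99b had r of 0.12, -0.33, -0.52, and -0.14, and miR-99b with miR-100 had 0.20, 0.22, -0.08, and -0.02. Against log10 total count, r was between -0.19 and 0.20 for the 4 members (permutation p adjusted to 0.272 or more), and in set 4 it was 0.48 for miR-99a, -0.53 for miR-99b, 0.66 for miR-100 and 0.67 for miR-125b-5p.

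Markers of other cell types moved at the same times as the members. Of the mesenchymal list (miR-143, miR-145, miR-199a-3p, miR-199a-5p, and miR-214), 4 of 5 were in the table, each with at least 14 counts in every animal. Their summed level was 14.48 to 14.92 log2 CPM at 6 h (n = 6), above the 13.65 to 14.40 at 72 h (n = 6) and overlapping the 13.80 to 14.61 at 0 h (n = 18). With the diets averaged, 1 of the 4 rose at 6 h, miR-145 by 0.53 (limma adjusted p = 0.00803), and miR-145 fell by 1.26 from 6 to 72 h (limma adjusted p = 6.18e-07) while miR-199a-3p rose by 0.43 (limma adjusted p = 0.0263). At 6 h miR-143, miR-199a-3p and miR-199a-5p differed by -0.20, -0.35, and 0.07 and were not called. From 6 to 72 h miR-143 and miR-199a-5p differed by 0.04 and 0.36 and were not called. The higher sum at 6 h was therefore not a rise of the whole list. The endothelial miRNA miR-126 was lower at 6 h, by 0.89 (limma adjusted p = 0.00393). The hepatocyte miRNA miR-192 was lower at 6 h by 0.69 (limma adjusted p = 0.00592) and rose by 0.87 from 6 to 72 h (limma adjusted p = 0.000304). The other hepatocyte miRNAs, miR-122 and miR-194, differed by 0.29 and -0.20 at 6 h and were not called. Between 6 and 72 h they differed by 0.10 and 0.38 and were not called. The summed hepatocyte level was 18.98 to 19.57 log2 CPM at 6 h (n = 6), overlapping the 18.34 to 19.42 at 0 h (n = 18). The lower miR-192 at 6 h was therefore not a fall of the whole hepatocyte list. From 6 to 72 h miR-126 rose by 0.83 (limma adjusted p = 0.00173), the leukocyte miRNA miR-142-3p rose by 0.85 (limma adjusted p = 0.000566), and miR-150, of the same list, fell by 0.99 (limma adjusted p = 5.48e-05). At 24 h, where miR-99a fell, 2 of the 4 mesenchymal miRNAs fell, miR-145 by 0.36 (limma adjusted p = 0.00327) and miR-199a-3p by 0.32 (limma adjusted p = 0.0101), and the summed level was 13.68 to 14.31 (n = 18). The 2 others, miR-143 and miR-199a-5p, were higher by 0.12 and 0.22 and not called (limma adjusted p = 0.326 and 0.0577). Of the 3 hepatocyte miRNAs 1 rose at 24 h, miR-122 by 0.33 (limma adjusted p = 0.0149), and of the 3 leukocyte miRNAs miR-150 fell by 0.60 (limma adjusted p = 8.76e-05) and miR-223 rose by 0.47 (limma adjusted p = 0.00323). miR-126 and the 2 red blood cell miRNAs were not called at 24 h. The red blood cell list summed to 9.10 to 10.89 log2 CPM at 72 h and 9.99 to 12.54 at 0 h, and both of its 2 miRNAs fell at 72 h. Of these, miR-451 also fell by 1.01 from 6 to 72 h (limma adjusted p = 0.00052), and miR-144 was not called. Among the other lists at 72 h against 0 h, miR-145 fell by 0.73 and miR-150 by 0.70 (limma adjusted p = 0.000316 and 0.00194). miR-199a-5p rose by 0.43 and miR-122 by 0.38 (limma adjusted p = 0.0292 and 0.0234). miR-143, miR-199a-3p, miR-126, miR-192, miR-194, miR-142-3p and miR-223 were not called. The part of these cells in the members' changes was not tested.

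In the comparisons as designed, diet gave no called difference in any member at 0, 6, 24, or 72 h. EtOH-fed animals differed from CHO-fed animals by -0.23 to -0.01 at 0 h over all treatments (n = 9 against 9), with the smallest limma adjusted p at 0.128 for miR-99a, where 14.7% of all miRNAs were called. miR-99a at 0 h was called without CHO-fed untreated replicate 2, the animal with the lowest total count (-0.28, limma adjusted p = 0.0461), and with scaling to the 100 highest probes (-0.29, limma adjusted p = 0.0412). At 24 h the member differences were -0.21 to -0.06 (1.4% called, smallest limma adjusted p 0.403). Between untreated animals, 3 against 3, they were -0.30 to 0.02 at 6 h (0% called, with 13 miRNAs at p under 0.05 before adjustment) and -0.38 to -0.24 at 72 h (0% called, with 14 before adjustment). Before adjustment, limma's p was under 0.05 for 1 of 4 members at 0 h, miR-99a, and for 0 of 4 at the other times. Of all 143 miRNAs, 43 were under it at 0 h and 21 at 24 h. The confidence interval for miR-99a at 72 h, -0.66 to 0.08, shows how large a difference these 3 animals leave possible. The diet by time interaction was called by limma for 0 of 143 (0%, with 8 at p under 0.05 before adjustment), and so was the difference between diets in the 24 h change (0%, with 14 before adjustment). For miR-99a that difference was -0.03 (95% CI -0.39 to 0.32).

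AM21 gave no called difference either. At 0 h the members of AM21-treated animals differed from controls by -0.14 to 0.16 (n = 6 against 12), with 4.2% of all miRNAs called and the smallest limma adjusted p at 0.606. At 24 h, with 2.8% called, the differences were 0.09 for miR-99a, -0.16 for miR-99b, 0.15 for miR-100, and 0.21 for miR-125b-5p (smallest limma adjusted p 0.685). For miR-99a at 24 h the sign differed by diet, with -0.10 under the CHO diet and 0.28 under the EtOH diet (limma adjusted p = 0.718 and 0.634). The AM21 difference in the 24 h change was called by limma for 0 of 143 (0%, with 4 at p under 0.05 before adjustment), and for miR-99a it was -0.07 (95% CI -0.38 to 0.23). Before adjustment, 0 of 4 members had a p under 0.05 in these AM21 comparisons, nor between saline and untreated animals. Of all 143 miRNAs, 17 did for AM21 at 0 h, 13 for AM21 at 24 h and 9 between saline and untreated animals. Saline and untreated animals, pooled as controls, differed by -0.09 to 0.14 in the members (1.4% of all miRNAs called, limma adjusted p = 0.971 for each member).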

How the data were processed

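miRNAs were counted in whole liver of 48 rats with the NanoString nCounter rat assay. Per the methods, the authors scaled the counts by trimmed mean of M values and converted them with voom, and the deposited values are log2 CPM of 143 miRNAs. The filter behind these 143 is not given in the sources used here. From the deposited log2 values, whole counts were recovered for 100% of entries within a tolerance of 0.001, with the voom offset of 0.5. Differences were fitted on the log2 values over all 143 miRNAs with limma 3.58.1 in R 4.3.3 (lmFit and eBayes). The untreated animals and the 0 and 24 h animals of all treatments were fitted separately, and p-values were adjusted within each comparison by the Benjamini-Hochberg method. Saline and untreated animals served together as controls at 0 and 24 h.

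The members were chosen by name, and members and gene lists were chosen with earlier results of these data known. Named miRNAs were the 4 members, the cluster partners (let-7a, let-7c, let-7e, and miR-125a-5p) and the 3 miRNAs most like each member by Pearson's r over group means. The means over diets, the ratios between members, the single arms and sets, and AM21 by diet were added after the values were seen. Labels describe the animals of a group as separate animals and do not say what a set number stands for. Alternatives were relative log expression scaling, scaling to the 100 highest probes, a minimum of 50 counts in 3 animals, voom weights, other fits, a replicate block, log10 total count as a covariate, untreated animals only, and leaving out each animal. The fitting code was tested on simulated data. Counts limit precision most for miR-100, and total counts ranged from 58168 to 267582. Correlations and ratios were tested by permutation (100000 resamples for correlations, exact for ratios). Sequences and positions are from RefSeq, GRCr8.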

Additional observations from a re-analysis of the deposited data

How the results depend on the processing

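Single member differences were recomputed for the changes with time and for AM21 against controls, and the diet, saline and interaction contrasts as counts of members called. Of 145 recomputed values of the 19 called member differences, 134 kept direction and call, 11 lost the call and 0 reversed. Of 335 values of the 41 other differences, 311 stayed as they were, 11 became called and 13 reversed. The number of members called moved by over 1.5 times as follows. The CHO F test called 4 with scaling to the 100 highest probes or one fit of all 48 animals, and 1 with only the groups compared. For CHO at 6 h and at 72 h against 0 h it was 1 with the 100 highest probes or with log10 total count, and for CHO at 72 against 6 h it was 0 with log10 total count. For CHO at 24 h it was 1 with only the groups compared and 0 with untreated animals only. For EtOH at 6 h it was 0 with the 100 highest probes or only the groups compared, and at 72 h against 0 h it was 1 with relative log expression, the 100 highest probes, voom weights, one fit of 48 animals or log10 total count. It was 1 for diet at 0 h with the 100 highest probes, 1 for AM21 animals at 24 h with relative log expression or the 100 highest probes, and 1 for the averaged 6 h difference with only the groups compared. Smaller moves included miR-99b, called for EtOH at 72 against 6 h with relative log expression (limma adjusted p = 0.0463) and the 100 highest probes (limma adjusted p = 0.0313), and not called for the averaged 72 against 6 h with log10 total count (limma adjusted p = 0.332). Scaling to the 100 highest probes moved the median of all miRNAs by 0.13 for EtOH at 6 h and by -0.15 for EtOH at 72 against 6 h. Small differences reversed. miR-125b-5p at 24 h became 0.0031 (voom weights) and 0.0086 (log10 total count) in CHO and 0.10 (untreated only) in EtOH. miR-99b at 72 h became -0.065 in CHO and -0.023 averaged (100 highest probes), and -0.037 in EtOH and -0.010 averaged (relative log expression). miR-99a at 72 against 6 h became -0.043 in CHO, -0.11 in EtOH and -0.077 averaged (log10 total count), and -0.057 in EtOH (100 highest probes). For AM21 against controls at 24 h, miR-99a was -0.10 in CHO alone and miR-99b 0.014 in EtOH alone. The causes were not tested. The count of correlated member pairs was 0 by Spearman's rho, 0 without 2 animals, 0 in sets 1 and 3 and 2 in set 4, where miR-99b with miR-125b-5p had r of -0.013.

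With each animal left out in turn, 203 of 228 called values kept the call and 25 lost it, and the number of members called ran from 0 to 3 (CHO F test and CHO at 6 h, EtOH at 6 h), 0 to 1 (CHO at 72 h against 0 h and 6 h, diet at 0 h), 1 to 4 (EtOH F test) and 1 to 2 (EtOH at 72 against 6 h, AM21 animals, averaged 72 h). Without CHO-fed 0 h replicate 2, the shallowest library (58168 counts), CHO at 6 h gave -0.73 for miR-99a, 0.67 for miR-99b and 0.79 for miR-125b-5p (limma adjusted p = 0.0101, 0.0245, and 0.0490). Without EtOH-fed 0 h replicate 2, EtOH at 6 h gave 0.66 for miR-99b and 1.07 for miR-125b-5p (limma adjusted p = 0.0236 and 0.00689). Uncalled differences that crossed 0 were miR-100 for CHO at 6 h (-0.21 to 0.045), miR-125b-5p at 24 h for CHO (-0.089 to 0.098), EtOH (-0.25 to 0.045) and averaged (-0.12 to 0.021), miR-99b at 72 h for CHO (-0.12 to 0.20), EtOH (-0.089 to 0.20) and averaged (-0.040 to 0.12), and miR-99a for EtOH at 72 against 6 h (-0.024 to 0.21). The replicate block changed no count of members called, with 2 for CHO at 24 h and a difference of -0.61 for miR-99a. The labels do not say that a number pairs animals. Of 66 pairs of groups, 10 had all 3 correlations of same-numbered animals over 0.1, and 20 of 36 animals correlated best with their own number, where unrelated numbers give 12. Untreated CHO-fed and EtOH-fed animals at 0 h were among the 10 (r of 0.52, 0.79, and 0.65), and with the replicate block in these 2 groups alone, chosen after seeing the data, 0 of 4 members and 14 of 143 miRNAs were called for diet, against 3 without it over the untreated animals. Depth limits miR-100 most, with 47 to 226 counts per animal.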
